A study of Neurospora crassa OR74A and Aspergillus nidulans FGSC A4 with 22 samples.

Results

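The *A. nidulans* genes *clrA* (AN5808), *clrB* (AN3369), *xlnR* (AN7610), *araR* (AN0388), *rhaR* (AN5673), *amyR* (AN2016), *facB* (AN0689) and *creA* (AN6195) encode transcription factors that set which carbon source the fungus uses. These 8 genes were chosen by locus number, and 7 of them were matched to an RNA-seq table of 10596 *A. nidulans* genes and are described here. The L-rhamnose regulator gene *rhaR* was the one without a match, and it was not analysed here. Mycelia of the wild-type strain FGSC 4A had been grown for 16 h in 1% glucose at 37°C, washed, and moved for 6 h either to 2% Avicel PH-101, a microcrystalline cellulose, or to medium with no added carbon source. Both groups thus shared the glucose pregrowth and the removal of glucose, and they differed in the Avicel. The study reports slight hemicellulose contamination of Avicel, so the added carbon was not cellulose alone. There were 3 libraries per group, and the comparison asks which regulator transcripts respond to Avicel beyond the response to starvation.

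All of these regulators but CreA are fungal zinc binuclear cluster proteins, which bind DNA through a pair of zinc ions held by cysteines. ClrB drives genes for cellulose use, ClrA is the relative of the *N. crassa* cellulase regulator CLR-1, XlnR drives genes for xylan and xylose use, AraR those for L-arabinose use, AmyR those for starch use, and FacB those for acetate use. CreA is a zinc finger repressor that keeps such genes off while glucose is present. Several of these factors are controlled as proteins, by a sugar that binds or releases them or by movement into the nucleus, so a transcript level is not a measure of their activity.

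The values are the authors' means of each group, in read counts divided by DESeq's size factors. The tables used here give group means and no value per library. Counts grow with the length of a transcript, and no lengths of these genes were used here, so the levels of different regulators are not ranked. Not corrected for length, their means lay between percentiles 62.9 (*amyR*) and 97.8 (*creA*) of all genes of the table on Avicel, and between 56.1 and 97.8 for the same genes on no carbon. For genes with low means, the reads of the 3 libraries could be recovered from the 10 digits of the mean, because only certain combinations of whole reads can add up to those digits. This gave a single solution for 4421 of 4842 means under 1000 on Avicel and for 3493 of 4851 on no carbon. The recovered size factors correspond to an estimated 37.7 to 48.3 M counted reads (M, 1000000) per library on Avicel and 43.9 to 46.1 M on no carbon. The means of the 7 regulators lie above that range, and each can be made up from 47 to 125715 combinations of reads, so their own spread is unknown.

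Genes with lower means than the regulators, whose means range from 1533 to 28489, were used to judge how far libraries of a group differ. Whether the spread found holds at those higher means was not tested. Among genes with means of 500 to 1000, the relative SD between libraries, from the median variance, was 13.6% in Avicel libraries (856 of 1273 genes recovered) and 22.2% in no carbon libraries (267 of 1230). Whether the genes not recovered have the same spread was not tested. It was larger at lower means in both groups, reaching 30.9% and 33.9% at means of 20 to 50. The spread at 500 to 1000 gives an error of 0.22 for a log2 ratio of the groups. A ratio is set here against 2 such errors, or 0.43 on the log2 scale, which corresponds to 1.35-fold. This limit describes a gene with the median spread and is no test of a single gene.

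**Figure D1:**
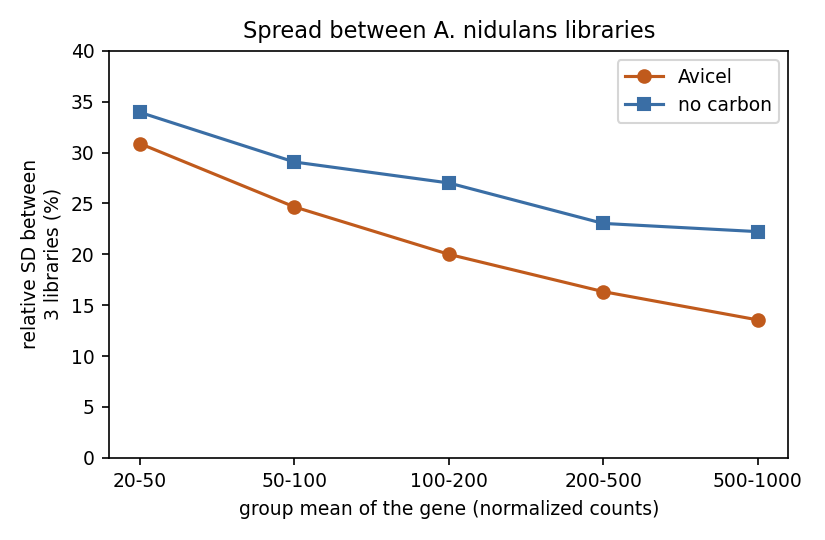
Relative SD between the 3 libraries of a group (vertical axis, %) for *A. nidulans* genes whose reads were recovered, by the group mean of the gene (horizontal axis, normalized counts), on Avicel (circles) and on no carbon (squares). The SD is derived from the median variance of the genes in a range, and at means of 500 to 1000 it was 13.6% on Avicel and 22.2% on no carbon.

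Of the 7 regulators, *clrB*, *facB*, *clrA* and *amyR* were higher on Avicel by more than 2 errors, and none was lower by that margin. The share of all genes with an average mean of at least 1000 that passed the same limit was 18.9% higher and 18.7% lower on Avicel, out of 5768. A ratio of at least 2 was reached only by *clrB* among the 7 genes, with 8.16% of 8571 genes with an average mean of at least 100 reaching it upwards and 3.06% downwards. *xlnR*, *araR* and *creA* lay within 2 errors of no difference. Rescaling the groups to equal sums lowers every log2 ratio by 0.14, and subtracting the median ratio of all genes, -0.05, raises every ratio by 0.05. Shifts of this size are too small to turn the sign of a ratio beyond 2 errors.

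**Figure D2:**
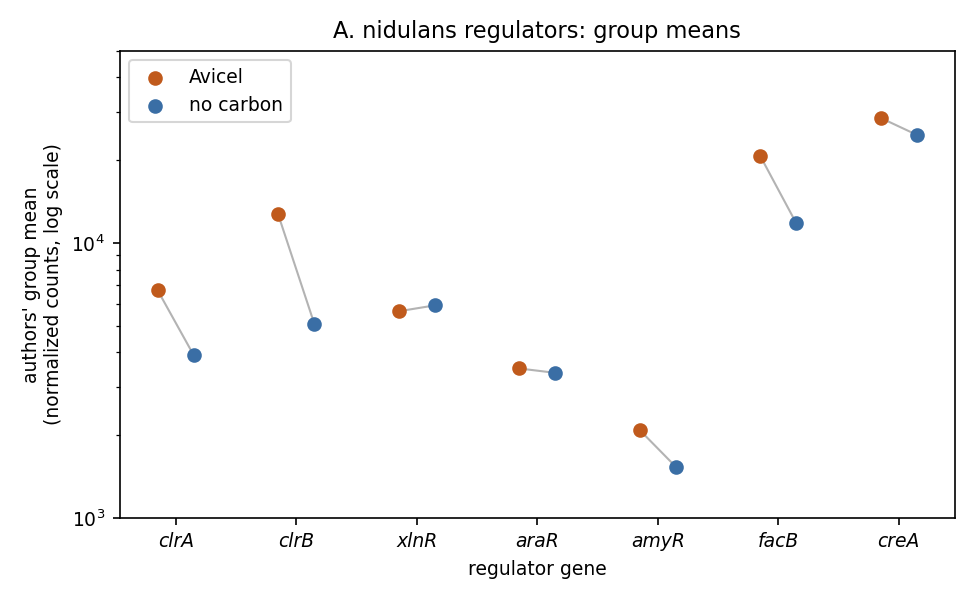
Authors' group means of the 7 regulator genes (vertical axis, normalized counts, log scale), with Avicel to the left of no carbon for each gene and a line joining the pair. The means of *clrB* are 12697 on Avicel and 5082 on no carbon, and those of *xlnR* are 5640.1 and 5926.

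The largest difference among the 7 genes was that of *clrB*, the ortholog of the *N. crassa* cellulase regulator *clr-2*. The authors' mean for this gene was 12697 normalized counts in the Avicel group, against 5082 in the no carbon group. This is a 2.50-fold higher level on Avicel, with a log2 ratio of 1.32 that spans 0.89 to 1.75 at 2 errors each way. Out of every 1000000 normalized counts of a group, *clrB* held 272 on Avicel and 120.0 on no carbon. Of the 5768 genes with an average mean of at least 1000, 257 genes (4.46%) had a log2 ratio as high as that of *clrB* or higher.

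*clrA*, the ortholog of *N. crassa* *clr-1*, differed less. Its authors' mean was 6726 on Avicel, against 3899 on no carbon, a log2 ratio of 0.79 (0.35 to 1.22 at 2 errors each way). It thus lay on the same side as *clrB*, at 1.72-fold. The log2 ratio of *clrB* exceeded that of *clrA* by 0.53, which is within 2 errors of such a difference (0.61). In all, 583 of the 5768 genes had a ratio as high as that of *clrA* or higher.

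The regulators of hemicellulose and pentose use were nearly level between the groups. For *xlnR*, whose product activates xylanase and xylose genes, the authors' mean was 5640.1 on Avicel, against 5926 on no carbon. The log2 ratio of -0.07 spans -0.51 to 0.36, so differences of that size in either direction are not resolved. *xlnR* was near the middle of all genes, at percentile 48.4 of the 5768 log2 ratios. For *araR*, whose product activates genes for L-arabinose breakdown, the authors' mean was 3494 on Avicel, against 3368 on no carbon, a log2 ratio of 0.05 (-0.38 to 0.49). With equal sums the log2 ratio of *araR* was -0.09, so not even its sign is fixed by these data.

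*amyR*, the regulator gene for starch use, lay between *clrA* and *araR* in log2 ratio, within 2 errors of a difference from each. Its authors' mean was 2087 on Avicel, against 1533 on no carbon, a log2 ratio of 0.44 (0.01 to 0.88) or 1.36-fold. The ratio exceeded the limit of 2 errors by 0.01 only, and with equal sums it was 0.30 and inside the limit. It was also inside the limit with the upper quartile of the variance between libraries, where the limit is 0.65, and with the spread of genes at means of 200 to 500, where it is 0.47. The range of 500 to 1000 was chosen with these values known, so *amyR* is a borderline case.

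*facB*, whose product activates the genes for acetate use, had an authors' mean of 20742 on Avicel and 11788 on no carbon. The log2 ratio was 0.82 (0.38 to 1.25), or 1.76-fold. It differed from that of *clrA* by 0.03, far inside the error of a difference, and it was 0.51 below that of *clrB*, again within 2 errors of a difference. Thus the acetate regulator and the cellulose regulators cannot be ordered by their ratios. The log2 ratio of *facB* exceeded that of *xlnR* by 0.89 and that of *araR* by 0.76, both beyond 2 errors of a difference.

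The repressor gene *creA* had an authors' mean of 28489 on Avicel and 24722 on no carbon. Its log2 ratio of 0.20 (-0.23 to 0.64) was within the limit, and with equal sums it was 0.06. Out of every 1000000 normalized counts, *creA* held 610.0 on Avicel and 584 on no carbon. No library on glucose was among the *A. nidulans* samples, so the level of *creA* or of any other regulator under repression is not described here.

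Among the 21 pairs of these 7 genes, the log2 ratios differed by more than 2 errors of a difference in 8. These were *clrB* against *amyR*, *creA*, *araR* and *xlnR*, and *facB* and *clrA* each against *araR* and *xlnR*. In the order *clrB*, *facB*, *clrA*, *amyR*, *creA*, *araR* and *xlnR*, no neighbours differed by more than 2 errors.

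The genes known to act in the pathways of the regulators were set beside them. They were limited to genes annotated by the study, which lists them because they or a counterpart in *N. crassa* were induced on Avicel in these libraries, so their direction is no independent evidence. The list for cellulose use held 12 genes, among them the β-mannosidase gene *mndB*. Of these, 11 were at least 2-fold higher on Avicel (8.16% of all 8571 genes) and 0 at least 2-fold lower (3.06% of all). Their median log2 ratio was 7.54, against -0.05 over the 8571 genes. The largest ratios in this list were those of the cellobiose dehydrogenase gene AN7230 (9.01) and of the cellobiohydrolase gene *cbhA* (AN5176), with authors' means of 206832 on Avicel and 422 on no carbon and a log2 ratio of 8.94. The smallest were 0.74 for the β-glucosidase gene *bglL* (AN2828) and 4.25 for *mndB* (AN3368), which encodes a mannan-degrading β-mannosidase and whose locus number precedes that of *clrB*. The transcript of *clrB* was thus 2.50-fold higher on Avicel where that of *cbhA* was 490-fold higher.

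Of 12 genes for xylan and xylose use, 10 were at least 2-fold higher on Avicel (8.16% of all 8571 genes). At least 2-fold lower were 0 (3.06% of all), and the median log2 ratio was 3.20. In *N. crassa*, the study attributes induction of xylanase and xylose genes on Avicel to hemicellulose left in it. The part of such hemicellulose in the xylan and arabinose lists here was not tested. The xylanase genes *xlnC* (AN1818) and *xlnE* (AN7401) had the largest log2 ratios, 8.83 and 8.76, beside -0.07 for *xlnR* itself. The study places *xlnE* among genes dependent on *clrB*, so this list goes by pathway and is no list of XlnR targets. It also names XlnR as a regulator of cellulase genes in Aspergilli. *xlnE* had an authors' mean of 6602 on Avicel, and its 3 no carbon libraries, whose reads were recovered, held 28.8, 8.69 and 8.28 normalized counts. All of these are low, and 1 library is about 3-fold above the others. The D-xylulokinase gene AN8790 and the xylitol dehydrogenase gene AN9064, which act on the breakdown products of xylose inside the cell, had log2 ratios of -0.32 and 0.11, close to *xlnR*. The putative D-xylose reductase gene AN0423 and the sugar transporter gene AN0250 were higher on Avicel, with log2 ratios of 1.68 and 1.61. With equal sums the ratio of AN9064 takes the other sign.

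For the release and use of arabinose, 5 annotated genes could be set beside *araR*. They had a median log2 ratio of 1.77. Of these 5, 3 were at least 2-fold higher on Avicel (8.16% of all 8571 genes) and 0 at least 2-fold lower (3.06% of all). The other 2 were AN8790 and AN9064, which the list shares with the one for xylose. This list also goes by pathway and is no list of AraR targets. Whether its arabinofuranosidase genes act on arabinan or on arabinose in other hemicellulose was not tested. The arabinofuranosidase gene *axhB* (AN2632) had an authors' mean of 20504 on Avicel and 44.4, 34.6 and 28.5 normalized counts in the 3 no carbon libraries, a log2 ratio of 9.16 from the means. The no carbon libraries of this gene were all low and had no library standing apart as in *xlnE*. *axhA* (AN7908), also an arabinofuranosidase gene, had a log2 ratio of 6.07. For starch use the only annotated gene was the α-glucosidase gene *agdB* (AN8953), with authors' means of 2065 on Avicel and 367 on no carbon and a log2 ratio of 2.49, beside 0.44 for *amyR*.

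**Figure D3:**
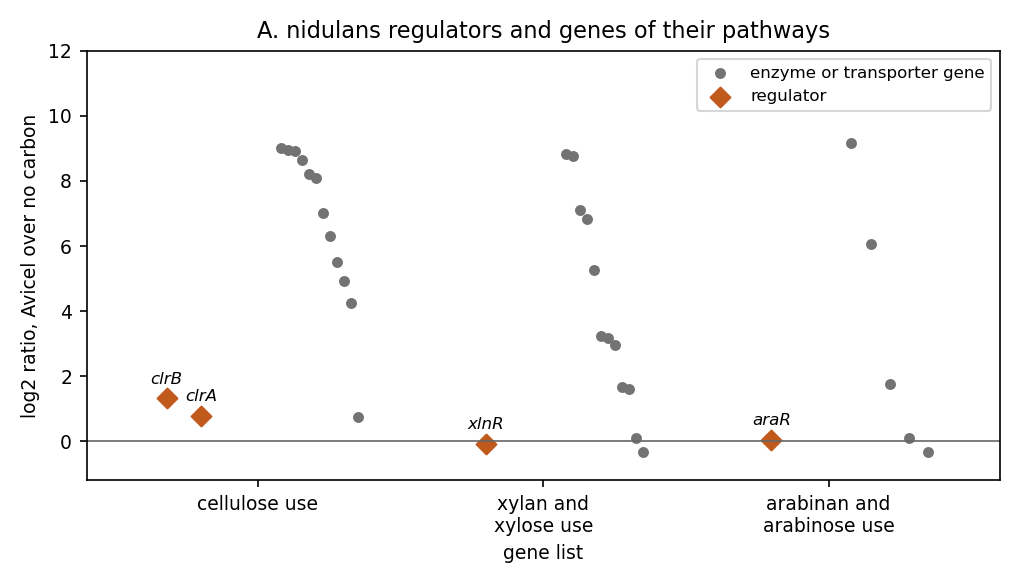
Log2 ratio of Avicel over no carbon (vertical axis) for regulator genes (diamonds) and for annotated enzyme and transporter genes of the same pathway (grey points, in falling order), for cellulose, for xylan and xylose, and for arabinose release and use (labelled arabinan and arabinose). The regulators lie between -0.07 and 1.32, while the enzyme genes reach 9.01, 8.83 and 9.16 in the 3 lists.

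The *A. nidulans* ratios were set beside those of *N. crassa* regulators, from wild-type mycelia moved from 2% sucrose to 2% Avicel or no carbon for 4 h at 25°C. The study pairs *clrA* with *clr-1*, *clrB* with *clr-2* and *xlnR* with *xlr-1*, and the other pairs were taken from background knowledge. The tables were normalized separately, so only ratios are compared, and the error of an *N. crassa* log2 ratio was 0.32 by the same method, from means of 200 to 500. On no carbon this rests on 86 of 926 genes with recovered reads, and on Avicel on 882 of 882. The estimated counted reads of the *N. crassa* libraries were uneven, from 9.67 to 54.9 M on Avicel and from 43.0 to 112 M on no carbon. The *clrB* log2 ratio of 1.32 lay below the 6.89 of *clr-2* (NCU08042), a difference of -5.57 (*A. nidulans* minus *N. crassa*). That of *clrA*, 0.79, stood against 2.21 for *clr-1* (NCU07705), a difference of -1.42, and that of *xlnR*, -0.07, against 1.93 for *xlr-1* (NCU06971), which regulates xylan use in *N. crassa*. In size, all of these differences exceed the limit of 0.77, which is 2 errors of a difference between species. Temperature, time after the shift and pregrowth sugar differ between the species as well, and their part in these differences cannot be told apart.

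For the remaining pairs the ratios of the species lay closer together. *creA* had a log2 ratio of 0.20 and *cre-1* (NCU08807) of 0.56, and *amyR* had 0.44 against 0.70 for *col-26* (NCU07788). *facB* had a log2 ratio of 0.82, against 0.11 for *acu-15* (NCU06656). The difference of 0.70 for this pair was within 0.77, but with equal sums, which lower all *N. crassa* log2 ratios by 0.45, it was 1.02 and beyond the limit. The sign of *acu-15* turned under that scaling, to -0.34. The differences for *clrA*, *clrB* and *xlnR* with equal sums were -1.11, -5.25 and -1.68 and stayed beyond the limit. With the upper quartile of the variance between libraries the limit is 1.19, and the difference for *clrA* was then beyond it as deposited and within it with equal sums, while those for *clrB* and *xlnR* were beyond it under both scalings.

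**Figure D4:**
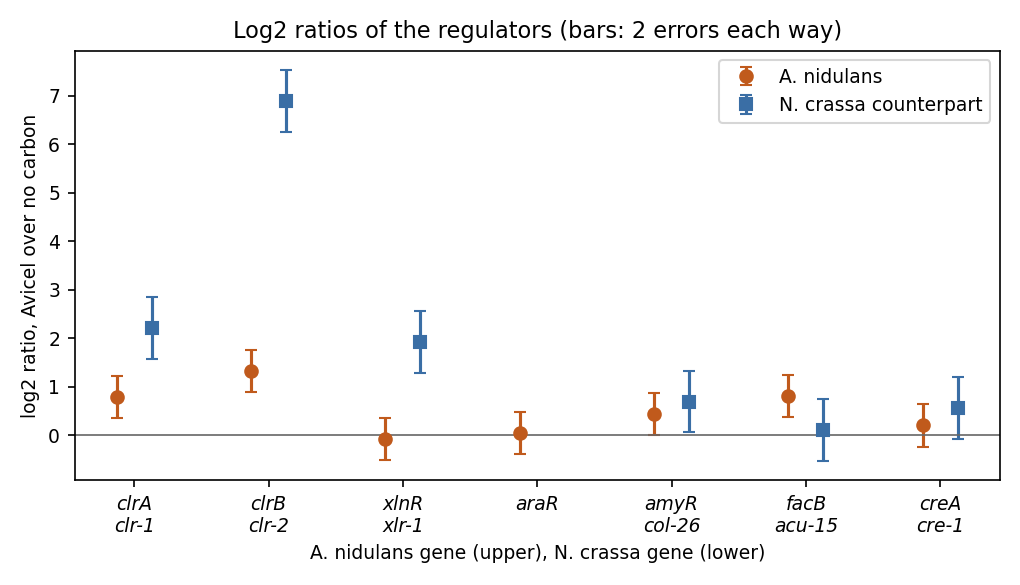
Log2 ratio of Avicel over no carbon (vertical axis) for the 7 *A. nidulans* regulators (circles) and, to their right, 6 *N. crassa* counterparts (squares). Bars span 2 errors each way, from the spread of other genes between libraries, and the largest gap is that of *clrB* at 1.32 and *clr-2* at 6.89.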

How the data were processed

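RNA was sequenced from 22 samples, and the deposited tables hold the means of 12 of them, 3 libraries in each of 4 wild-type groups. The remaining 10 were not analysed here. The authors mapped reads with TopHat 2.0.4, counted reads on unique exons with HTSeq and normalized them with DESeq, whose versions are not given in the sources used here, nor is the strand setting. The deposited signal values are the authors' group means of counts divided by size factors. The tables also hold the authors' fold changes, p-values and adjusted p-values, which were not used. The planned limma test on reads per library could not be made, since reads were recovered for 0 of the 7 regulators. Members, lists, the species pairs and the range of means behind the error were chosen with results of these data known.

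Log2 ratios were taken from group means without a pseudocount. Means under 1000 were written as whole reads over size factors, size factors were refined by least squares, and means with a single solution were kept. The median squared relative SD, divided by 0.693 (the median of such a variance over its mean with 3 libraries), gave the variance of a group, from means of 500 to 1000 in *A. nidulans* and 200 to 500 in *N. crassa*. In the alternative with the upper quartile, that quartile was divided by the same 0.693. This gives a wider limit than the quartile itself. The error of a log2 ratio is the root of the summed variances over 3, divided by the natural log of 2. Steps were tested on simulated data. All regulators were named, and of each list the 2 largest and the 2 smallest ratios, with AN0423 and AN0250 added afterwards. Listed genes that neither the files nor the study annotate were left out, and so were the planned lists for rhamnose, acetate, repression and further regulators, which consist almost entirely of such genes. Python 3.11.15, numpy 2.4.6, pandas 2.3.3 and numba 0.67.0 were used. The authors call their replicates biological triplicates.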

Additional observations from a re-analysis of the deposited data

How the results depend on the processing

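Equal sums and median centring move the log2 ratios of all 7 regulators alike, by -0.14 and 0.05. Both shifts are smaller than 1 error, so they are no separate check of each gene. A pseudocount of 10 is small beside these means and also moved each ratio by less than 1 error. The number of regulators at least 2-fold apart, 1, became 3 at a limit of 1.5-fold (*clrB*, *facB* and *clrA*) and 0 at 4-fold. Beyond 2 errors there were 4 regulators, and 3 with a limit of 3 errors, with the upper quartile of the variance or with equal sums, *amyR* being the gene lost each time. With the variance from means of 200 to 500 there were also 3. Median centring left 4. For this count, both scalings and the last range were chosen as alternatives after seeing the data. The ratios of the species differed beyond 2 errors in 3 of 6 pairs, in 4 with equal sums, in 3 with the upper quartile and in 2 with both, alternatives also added after seeing the data. No paired analysis was possible because the tables hold group means that carry no replicate numbers, and for the same reason no library could be left out. Depth does not limit these means, whereas the unknown spread of each regulator between libraries does.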

Other observations

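Of the other *A. nidulans* regulators annotated in the study's lists, 5 of 6 had larger ratios than the 7 described. They are all 6 genes whose annotation there names a transcription factor or zinc finger, a rule set after the data had been seen, and the lists rest on induction in these libraries in either species, so the values are a description. Of the 5768 genes with an average mean of at least 1000, 4.46% had a ratio as high as that of *clrB* or higher. That share leaves out AN7332 and AN0197, whose average means are lower. The putative zinc-finger gene AN0709 had an authors' mean of 38683 on Avicel and 2770.4 on no carbon, a log2 ratio of 3.80. AN3433, a predicted transcription factor gene, had an authors' mean of 3293 on Avicel and 655, 231 and 190.2 normalized counts in the 3 no carbon libraries, where 1 library stands well above the others. AN0197, likewise a predicted transcription factor gene, held 209, 198 and 75.8 normalized counts in the Avicel libraries and 33.6, 27.0 and 15.6 in the no carbon libraries. The possible C6 transcription factor gene AN10384 and the predicted one AN7332 had log2 ratios of 2.10 and 2.09. *xprG* (AN1414), a regulator of extracellular protease genes, was level, with authors' means of 24086 on Avicel and 23824 on no carbon.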
